A study of Mus musculus with 9 samples.

Results

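The 40 genes described here encode the enzymes with which the liver breaks down amino acids and turns their nitrogen into urea, together with the mitochondrial ornithine carrier. The list was drawn up with earlier results of these data known, so its shares beside those of all tested genes are a description without a test. All 40 of the 40 were found among the 21470 genes of the table. All 40 also passed the filter on low values that left 10142 genes for testing. RNA was measured in mouse liver in 9 libraries, 3 in each of 3 groups: sham operation, bile duct ligation (BDL), and ligation with ligustilide, named LIG20 in the sample titles. Bile duct ligation blocks the flow of bile and leads to cholestatic injury and fibrosis. Ligustilide is a phthalide found in Angelica and Ligusticum roots. Its dose is not settled, since the design text says 10 mg/kg and that group's titles carry the number 20. The labels name no strain, sex, age or time after ligation, and no vehicle for the sham and BDL groups. They do not say that each library came from its own mouse, so the p-values speak to the spread among libraries, part or all of which may be technical.

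In hepatocytes, transaminases and dehydrogenases take the amino group from amino acids, and the urea cycle, which runs through the mitochondrion and the cytosol, joins the freed ammonia and the nitrogen of aspartate into urea. The carbon skeletons go to energy or glucose. Methionine and the methyl donor betaine feed a second set of enzymes that supply methyl groups for methylation and pass homocysteine on to cysteine and taurine. Much of this machinery is strongest in hepatocytes near the portal tract.

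The levels are FPKM, that is fragments divided by transcript length and by the mapped total of the library, which allow genes of different length to be compared. The change between groups is a difference of log2(FPKM + 1) with its standard error from limma, and a gene is said to have risen or fallen where the adjusted p over all tested genes was below 0.05. Library sizes, recovered from the table as whole fragments, ran from 34815965 to 40780517. Each enzyme was covered by at least 1321 fragments in every library (Bckdhb), a counting error of 2.75%, so the error of these values lies in the spread between libraries. Alb, the albumin gene of hepatocytes, stood between 16179 and 33912 FPKM in every library. Of the marker lists, 6 of 7 tested cholangiocyte genes, 10 of 10 macrophage genes and 6 of 10 stellate cell and fibroblast genes rose with ligation, beside 22.9% of all tested genes. Summed marker levels went from a range of 24.6-44.4 FPKM in sham to 413-609 in BDL for cholangiocytes, from 122-249.8 to 608-808 for macrophages, and from 14.8-41.2 to 74.3-93 for stellate cells and fibroblasts. The summed plasma protein genes of hepatocytes were 87784 to 100269 FPKM in sham and 78080.4 to 87411 in BDL. Other markers of hepatocytes near the portal tract summed to 2663-3545 FPKM in sham and 1999.9-2591 in BDL. Those near the central vein summed to 2974-4907 and 2436-2525. Of the 12 tested genes near the portal tract 2 rose and 2 fell, and of the 10 near the central vein 0 rose and 3 fell. Among the cholangiocyte markers, Cftr and Sctr were at 0 in some libraries, and no macrophage, stellate or endothelial marker was. The part of these cells in the changes of the enzymes was not tested. In bulk liver, fewer cells of a type and less RNA per cell cannot be told apart.

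The scale of the table bears on every direction below. The median change over all tested genes was 0.16 in BDL against sham, 0.18 in LIG20 against BDL and 0.34 in LIG20 against sham. Median-of-ratios scaling, which takes the typical gene as fixed, moved these to -0.06, -0.03 and -0.09. The split of rising against falling genes moved with it, from 2322 and 686 to 1462 and 1466 in BDL against sham, from 1012 and 182 to 275 and 355 in LIG20 against BDL, and from 4430 and 905 to 2149 and 2771 in LIG20 against sham. Rescaling to TPM moved the medians the other way, to 0.26, 0.33 and 0.59. Changes of the enzymes are therefore to be read with the scale in mind, and which scale is right was not tested.

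With ligation, enzymes changed in both directions. In BDL against sham, 7 of the 40 rose and 10 fell, while 23 did not pass the test. The largest rise was that of Bhmt (2.01 ± 0.20, adjusted p = 6.02e-05), which makes methionine from homocysteine and betaine, and the largest fall that of Agxt (-1.50 ± 0.16, adjusted p = 9.58e-05), which disposes of glyoxylate. The share of enzymes that passed was 42.5%, beside 29.7% of all tested genes. Among all tested genes 22.9% rose and 6.76% fell, and among the enzymes 17.5% rose and 25% fell. All tested genes include many at lower levels than the enzymes. Of the 5293 genes with a mean of at least 5 FPKM, 1325 rose and 513 fell, with 7 and 10 enzymes again among them. The median change of the enzymes was -0.14. In 26 of the 40 the BDL and sham libraries did not overlap, against 45% of all tested genes. BDL lay above in 11 and below in 15 of these, beside 33.7% and 11.3% of all tested genes. The 7 that rose were Bhmt, Cth, Tat, Mat1a, Dmgdh, Aass and Slc25a15. The 10 that fell were Agxt, Ftcd, Cbs, Gls2, Otc, Uroc1, Bckdha, Amdhd1, Kynu and Sardh. With median-of-ratios scaling 3 rose and 13 fell, as they did after removal of the trend in gene length, and with TPM 8 rose and 6 fell. Without BDL replicate 2, and likewise without BDL replicate 3, 5 rose and 5 fell. Bhmt, Cth, Tat, Agxt, Ftcd, Cbs, Gls2 and Bckdha passed the test with the same direction under all 21 alternatives.

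**Figure D1:**
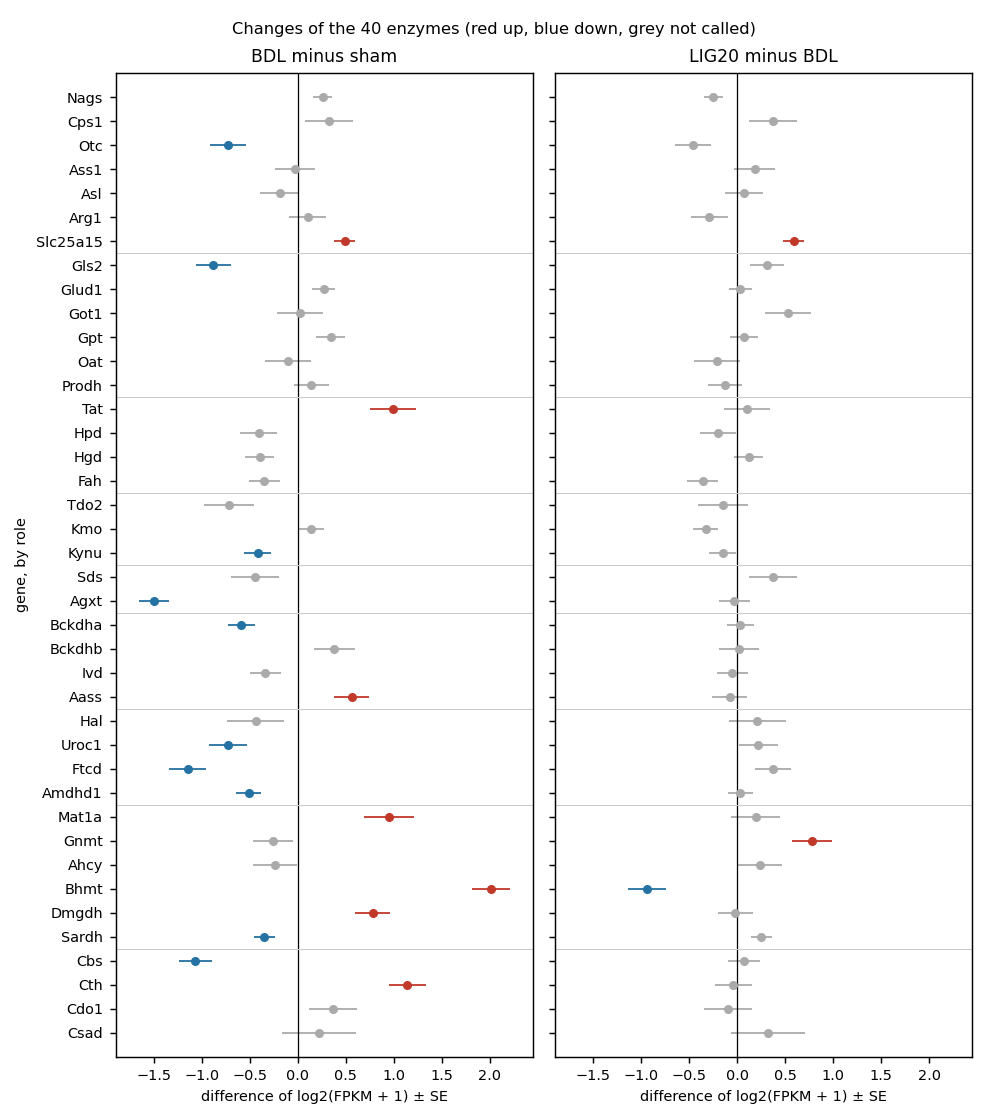
Change of each of the 40 enzymes as a difference of log2(FPKM + 1), with bars of 1 standard error, for BDL minus sham and LIG20 minus BDL, grouped by pathway; red marks a rise and blue a fall past an adjusted p of 0.05, grey the rest. Ligation spread the enzymes from -1.50 (Agxt) to 2.01 (Bhmt), and LIG20 against BDL from -0.94 (Bhmt) to 0.78 (Gnmt).

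The urea cycle did not move as a unit with ligation. Of its 7 members Otc fell, Slc25a15 rose and 5 did not pass the test, with a median change of 0.10. Among all tested genes 29.7% were called (22.9% up and 6.76% down), with a median of 0.16. These shares also stand beside the counts of the other pathways below. Nags, which makes the activator of the first enzyme, stood at 29.5, 33.3 and 31.7 FPKM in sham, 37.1, 38 and 38.8 in BDL, and in LIG20 33, 29.7 and 32.8. All BDL libraries were above both other groups, with a difference from sham of 0.26 ± 0.10 (adjusted p = 0.0784). Cps1, which fixes ammonia into carbamoyl phosphate in the mitochondrion, read 485, 420.1 and 248 FPKM in sham, 509, 462 and 419 in BDL, and in LIG20 735, 472 and 614. Its groups overlapped throughout (BDL against sham 0.32 ± 0.25, adjusted p = 0.361). Otc, which joins carbamoyl phosphate to ornithine to give citrulline, was 124, 91 and 70.1 FPKM in sham, 55.8, 55.1 and 55.2 in BDL, and in LIG20 35.2, 46.9 and 38.9. The 3 groups of Otc did not overlap and lay in that order. Its fall with ligation was -0.73 ± 0.19 (adjusted p = 0.0149), and it missed the threshold without BDL replicate 2 (adjusted p = 0.0515) or 3 (adjusted p = 0.0513). Slc25a15, which carries ornithine into the mitochondrion for Otc, went the other way, with 45, 40.8 and 37.4 FPKM in sham, 59.1, 59.2 and 55.7 in BDL, and in LIG20 86.1, 85.2 and 92.6. Here too the groups were apart, and the rise with ligation was 0.49 ± 0.11 (adjusted p = 0.0065). With median-of-ratios scaling that rise was 0.20 (adjusted p = 0.283) and with the length trend removed 0.25 (adjusted p = 0.0954).

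The 3 cytosolic enzymes of the cycle did not pass the test, and of all 7 members Ass1 and Arg1 had the highest mean FPKM in every group. Ass1, which adds the aspartate nitrogen, stood at 1764, 1723 and 1367 FPKM in sham, 1852, 1555 and 1351 in BDL, and in LIG20 2223, 1419 and 1787, and its groups overlapped. Asl, which splits argininosuccinate into arginine and fumarate, was 281, 292 and 237 FPKM in sham, 274, 232 and 206 in BDL, and in LIG20 311, 180.1 and 268. Arg1, which releases urea from arginine, was 1346, 1309 and 1011 FPKM in sham, 1291, 1323 and 1293 in BDL, and in LIG20 1200.3, 809.8 and 1232. The differences of BDL from sham were -0.03 ± 0.21 for Ass1, -0.19 ± 0.20 for Asl and 0.10 ± 0.19 for Arg1, with adjusted p of 0.925, 0.518 and 0.725. Each library's sum over the 7 members ran from 3001 to 4074 FPKM in sham, 3419 to 4077 in BDL and 3043 to 4625 in LIG20, so the groups overlapped in total as well.

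**Figure D2:**
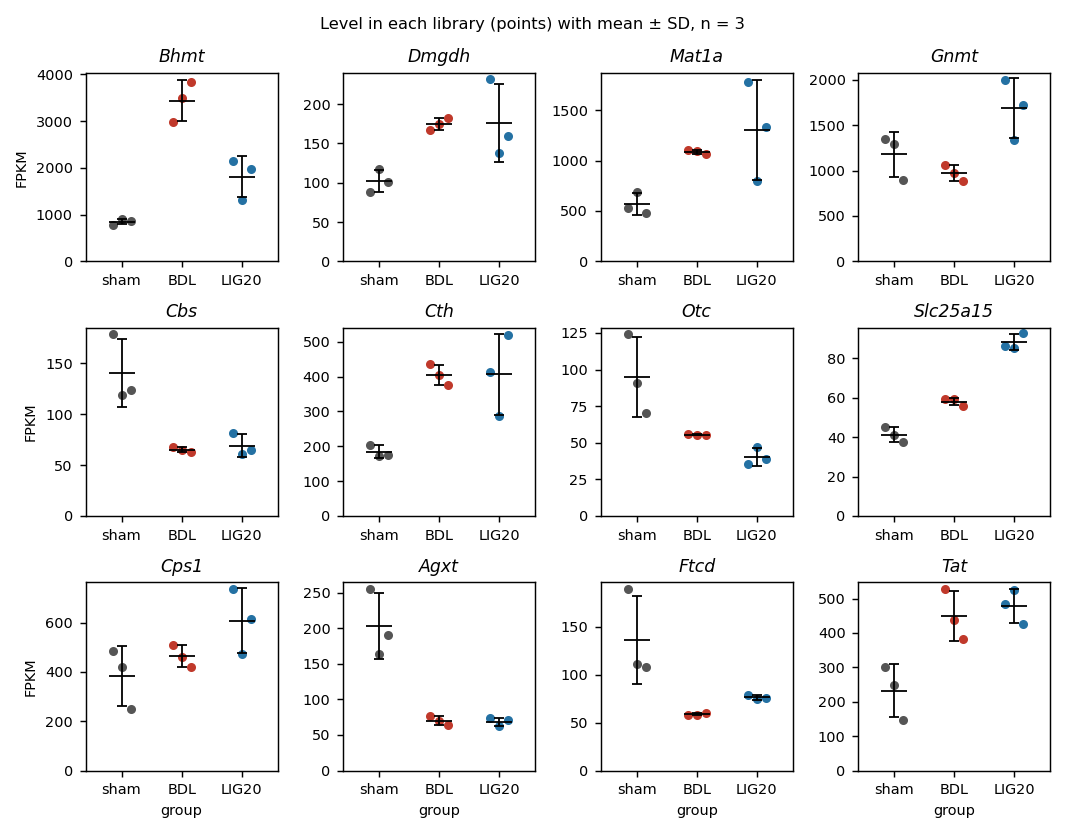
Level in FPKM of 12 enzymes in each of the 9 libraries, with a point per library and bars for the mean ± SD of each group (n = 3); every axis starts at 0. Bhmt and Cth lie higher and Agxt, Ftcd and Cbs lower in all BDL libraries than in all sham libraries, Otc steps down and Slc25a15 up across the 3 groups, and the Cps1 groups overlap.

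Around glutamate, through which most amino groups pass, 1 of 6 enzymes fell and none rose with ligation. Gls2, the liver glutaminase that feeds ammonia and glutamate to the cycle, was 195, 138 and 130.5 FPKM in sham, 84.6, 81.4 and 80.9 in BDL, and in LIG20 130.1, 85.9 and 94.8. Every sham library was above every BDL library, and the change was -0.88 ± 0.18 (adjusted p = 0.00538). Glud1, glutamate dehydrogenase, averaged 205 ± 12.9 FPKM in sham (SD, n = 3) against 247 ± 13.3 in BDL, a difference of 0.27 ± 0.12 (adjusted p = 0.109). The cytosolic aspartate transaminase Got1 read 108, 113 and 82.2 FPKM in sham, 142, 98 and 75.5 in BDL, and in LIG20 152, 116 and 183, with overlapping groups. The alanine transaminase Gpt stood at 132 ± 15.9 FPKM in sham and 166 ± 2.78 in BDL, with no overlap of libraries but an adjusted p of 0.113. Oat, ornithine aminotransferase, was 241, 275 and 311 FPKM in sham, 239, 257 and 271 in BDL, and in LIG20 253, 142 and 298. Together with Prodh, which opens proline breakdown, it showed overlapping groups and adjusted p of 0.785 (Oat) and 0.616 (Prodh).

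In tyrosine breakdown the entry enzyme rose and the later steps had lower means without passing the test. Tat, tyrosine aminotransferase, was 302, 248 and 148 FPKM in sham, 527, 437 and 382 in BDL, and in LIG20 484, 525 and 426. All sham libraries lay below all others, and BDL was 1.93 times sham in mean FPKM (0.99 ± 0.24, adjusted p = 0.0108). Hpd, the dioxygenase that follows, read 1411, 1327 and 1138 FPKM in sham, 1088, 953 and 871 in BDL, and in LIG20 1047, 650.5 and 879, a difference of -0.41 ± 0.19 between BDL and sham (adjusted p = 0.133). For Hgd, homogentisate dioxygenase, the difference was -0.40 ± 0.15 (adjusted p = 0.0712). Fah, the last step of the route, was 489, 509.9 and 475 FPKM in sham, 405, 379 and 369 in BDL, and in LIG20 378, 246 and 287. BDL differed from sham by -0.35 ± 0.16 in Fah (adjusted p = 0.117), with no overlap of libraries.

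Of the tryptophan route, Kynu fell with ligation. Kynu, kynureninase, was 33.6, 25.9 and 24.9 FPKM in sham and 20.1, 21 and 20.6 in BDL, with a change of -0.42 ± 0.14 (adjusted p = 0.044). That call was lost under 12 of 21 alternatives, among them each BDL library left out (adjusted p up to 0.118), sham replicate 1 (0.0664) or 2 (0.0626) and LIG20 replicate 2 (0.0524) or 3 (0.0585). Tdo2, which opens the route, ranged over 748, 419 and 305 FPKM in sham against 273, 282 and 279.6 in BDL, a difference of -0.72 ± 0.26 (adjusted p = 0.066). Sham and BDL libraries of Tdo2 were apart, but sham replicate 1 stood far above its group. Without that library the difference was -0.36 (adjusted p = 0.0773), and without sham replicate 3 it was -1.01 (adjusted p = 0.00956). Kmo, kynurenine monooxygenase, was 105, 113 and 82.9 FPKM in sham, 102, 112 and 116 in BDL, and in LIG20 80.2, 88.7 and 93.

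Among the enzymes of serine, glycine and the branched chain amino acids, Agxt and Bckdha fell. Agxt, the peroxisomal alanine-glyoxylate aminotransferase, was 255, 164 and 190.2 FPKM in sham, 76.7, 70.0 and 63.4 in BDL, and in LIG20 73.2, 62.2 and 70.4. The mean in BDL was 0.345 times that in sham, and the lowest sham library stood above the highest library of either other group. Sds, serine dehydratase, read 185, 196 and 192 FPKM in sham, 161, 142 and 118 in BDL, and in LIG20 233, 111 and 226 (BDL against sham -0.45 ± 0.25, adjusted p = 0.203). Bckdha, the alpha subunit of the branched chain keto acid dehydrogenase, was 107, 124 and 143 FPKM in sham, 85, 79.7 and 80.3 in BDL, and in LIG20 94, 70.6 and 86.6. It fell by 0.59 on the log2 scale (SE 0.14, adjusted p = 0.0106), whereas its partner subunit Bckdhb differed by 0.38 ± 0.21 (adjusted p = 0.206). Ivd, which acts on the leucine route, differed by -0.34 ± 0.16 (adjusted p = 0.135). Aass, which opens lysine breakdown, was 62.9, 66.1 and 44.6 FPKM in sham, 87.5, 85.6 and 81.5 in BDL, and in LIG20 92.4, 63.8 and 86.6, and rose with ligation by 0.56 ± 0.18 (adjusted p = 0.035). The rise of Aass was lost under 7 alternatives, among them median-of-ratios scaling (0.28, adjusted p = 0.348), sham replicate 3 left out (0.39, adjusted p = 0.0956) and each BDL library left out (adjusted p up to 0.101).

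In histidine breakdown 3 of the 4 enzymes fell and none rose with ligation, with a median change of -0.62, and Ftcd alone kept its call under all 21 alternatives. Histidine loses its ammonia to Hal, then passes through Uroc1 and Amdhd1 to Ftcd, which hands a formimino group to folate. Ftcd was 189.6, 111 and 108 FPKM in sham, 57.7, 58.4 and 59.6 in BDL, and in LIG20 79.1, 74.1 and 75.3. Its groups were all apart, with LIG20 between the others, and the fall with ligation was -1.15 ± 0.19 (adjusted p = 0.00138). Uroc1, urocanase, was 148, 86.3 and 80.9 FPKM in sham, 60.9, 60.4 and 61 in BDL, and in LIG20 77.6, 67.8 and 67.8. Amdhd1, imidazolonepropionase, was 94, 71.2 and 87 FPKM in sham, 60.5, 57.5 and 57.5 in BDL, and in LIG20 69.1, 55.2 and 56.3. In both, every sham library stood above every BDL and LIG20 library. Uroc1 fell with ligation by 0.73 on the log2 scale (SE 0.20, adjusted p = 0.0196) and Amdhd1 by 0.51 (SE 0.13, adjusted p = 0.0169). Uroc1 missed the threshold with each BDL library left out (adjusted p up to 0.0636), and Amdhd1 without BDL replicate 2 (0.0674) or 3 (0.0655). With TPM both missed it (adjusted p = 0.0607 for Uroc1 and 0.0595 for Amdhd1). Without sham replicate 1, the highest sham library of Uroc1, its fall was -0.45 and kept its call. Hal, the first step, read 123, 101 and 73.1 FPKM in sham, 76.7, 69.2 and 67.7 in BDL, and in LIG20 128, 48.9 and 88.5, with overlapping groups and a difference of -0.44 ± 0.30 (adjusted p = 0.301). Summed over the 4 enzymes, sham libraries held 349 to 555 FPKM, BDL libraries 246 to 256 and LIG20 libraries 246 to 354.

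Hal and Amdhd1 are neighbours on mouse chromosome 10 with 0 protein-coding genes between them in the RefSeq gene order, and Ftcd lies on the same chromosome. The promoters of these 3 and of Agxt are shown because they belong to the histidine route and to the largest fall. The window of Uroc1, the other enzyme of the route, lies on chromosome 6 and is not shown. Its only match is TGACCT, which is AGGTCA on the other strand, 104 bases before the start site. They are RefSeq windows of build GRCm38.p6, an earlier build than that named for the table, of 300 bases from 250 before to 50 after the start site, read 5′ to 3′ on the gene's strand. The coordinates are chr10:93488518-93488817 on the plus strand for Hal, chr10:93539984-93540283 on the minus strand for Amdhd1, chr10:76575398-76575697 on the plus strand for Ftcd and chr1:93134990-93135289 on the plus strand for Agxt. Capitals mark matches to the motifs searched.
Hal: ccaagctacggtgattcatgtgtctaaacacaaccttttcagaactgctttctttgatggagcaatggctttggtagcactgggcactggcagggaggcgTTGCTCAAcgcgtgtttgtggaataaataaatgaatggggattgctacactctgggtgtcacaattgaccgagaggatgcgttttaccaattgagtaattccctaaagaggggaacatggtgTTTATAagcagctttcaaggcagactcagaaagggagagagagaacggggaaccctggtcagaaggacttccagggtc
Amdhd1: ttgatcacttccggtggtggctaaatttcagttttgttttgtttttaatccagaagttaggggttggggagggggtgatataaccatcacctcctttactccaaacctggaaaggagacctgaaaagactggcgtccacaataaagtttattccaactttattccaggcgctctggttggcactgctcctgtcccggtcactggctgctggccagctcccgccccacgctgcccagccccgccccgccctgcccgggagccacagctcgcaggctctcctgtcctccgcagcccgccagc
Ftcd: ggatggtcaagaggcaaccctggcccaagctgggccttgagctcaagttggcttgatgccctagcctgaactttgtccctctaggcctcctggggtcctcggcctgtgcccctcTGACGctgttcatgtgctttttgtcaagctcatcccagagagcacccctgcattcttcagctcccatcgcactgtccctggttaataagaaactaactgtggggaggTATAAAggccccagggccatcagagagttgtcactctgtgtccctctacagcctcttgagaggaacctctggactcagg
Agxt: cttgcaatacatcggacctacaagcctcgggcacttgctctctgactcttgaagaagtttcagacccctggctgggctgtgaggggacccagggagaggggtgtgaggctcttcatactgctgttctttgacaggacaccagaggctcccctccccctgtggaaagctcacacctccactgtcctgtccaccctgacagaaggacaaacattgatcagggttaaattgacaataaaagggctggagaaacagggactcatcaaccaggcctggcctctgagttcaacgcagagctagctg
Hal and Ftcd each hold a TATA box (TATAAA on either strand) that begins 28 and 29 bases before the start site. Hal also holds TTGCTCAA, a match to the C/EBP motif TTGCNNAA, 150 bases before the start, and Ftcd holds TGACG, the core of the cyclic AMP response element, 136 bases before it. Amdhd1 and Agxt hold no match. Of 32851 windows in the RefSeq table, 13.6% held the TATA box, 10.8% the C/EBP motif and 20.8% TGACG, both strands counted. The shares among the 33 windows of the 30 enzymes with an entry were 12.1%, 9.09% and 15.2%. The TATA box was added to the search after the windows had been read, as was AGGTCA, which is given below with Bhmt. The other motifs searched on both strands were TGACGTCA, the full cyclic AMP response element that contains TGACG (1.79% of all windows), CAAAGTCCA of HNF4 (0.475%), the HNF1 motif (0.00913%), TGATGNAA of the amino acid response (3.97%) and the glucocorticoid receptor motif (0.475%). Of these, Got1 held TGATGNAA and Gnmt the glucocorticoid receptor motif, and the enzyme windows held 0 of the other 3. A match is a description of letters and was not tested against the expression changes.

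The methyl group enzymes held both the largest rise of the set and opposite moves. Of 6 members Bhmt, Mat1a and Dmgdh rose with ligation, Sardh fell, and Gnmt and Ahcy did not pass the test. Bhmt was 788, 898 and 867 FPKM in sham, 2975, 3501 and 3833 in BDL, and in LIG20 2143, 1317 and 1983. The BDL mean was 4.04 times the sham mean, and the LIG20 libraries lay between the groups without touching either. Dmgdh, which oxidizes the dimethylglycine that Bhmt leaves behind, was 88.5, 117 and 101 FPKM in sham, 167, 175 and 182 in BDL, and in LIG20 232, 138 and 159. Its rise with ligation was 0.78 ± 0.18 (adjusted p = 0.00981), with 0.49 (adjusted p = 0.175) under median-of-ratios scaling. Sardh, which takes the next methyl group off sarcosine, averaged 146 ± 0.764 FPKM in sham and 115 ± 3.22 in BDL (SD, n = 3). Its fall of -0.35 ± 0.11 (adjusted p = 0.0425) was lost under 11 of 21 alternatives, with adjusted p up to 0.155, among them each BDL library, sham replicates 2 and 3 and LIG20 replicate 3 left out.

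Mat1a, which makes the methyl donor S-adenosylmethionine, was 529.6, 689 and 482 FPKM in sham, 1102, 1091 and 1064 in BDL, and in LIG20 1782, 796 and 1335. All BDL libraries were above all sham libraries, and the rise was 0.95 ± 0.26 (adjusted p = 0.0197). It missed the threshold with median-of-ratios scaling (0.66, adjusted p = 0.154), with each BDL library left out (adjusted p up to 0.0638) and without sham replicate 3 (0.0603). Gnmt, which uses S-adenosylmethionine to methylate glycine, read 1351, 1292 and 892 FPKM in sham, 1066, 969 and 882 in BDL, and in LIG20 1992, 1338 and 1726. The sham and BDL libraries of Gnmt overlapped (-0.26 ± 0.21, adjusted p = 0.382). Ahcy, which frees homocysteine from the product of methylation, differed by -0.24 ± 0.23 (adjusted p = 0.473).

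Bhmt and Dmgdh lie on chromosome 13 with Bhmt2 alone between them in the RefSeq gene order, and their promoters are shown as those of neighbouring genes that both rose. The windows are chr13:93637709-93638008 on the minus strand for Bhmt and chr13:93674186-93674485 on the plus strand for Dmgdh, with build and frame as above.
Bhmt: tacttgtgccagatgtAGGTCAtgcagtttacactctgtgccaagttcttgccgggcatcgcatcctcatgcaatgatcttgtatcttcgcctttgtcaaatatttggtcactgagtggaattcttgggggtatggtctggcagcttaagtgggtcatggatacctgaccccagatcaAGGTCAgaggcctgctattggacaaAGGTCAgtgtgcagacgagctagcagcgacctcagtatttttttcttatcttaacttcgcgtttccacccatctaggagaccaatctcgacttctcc
Dmgdh: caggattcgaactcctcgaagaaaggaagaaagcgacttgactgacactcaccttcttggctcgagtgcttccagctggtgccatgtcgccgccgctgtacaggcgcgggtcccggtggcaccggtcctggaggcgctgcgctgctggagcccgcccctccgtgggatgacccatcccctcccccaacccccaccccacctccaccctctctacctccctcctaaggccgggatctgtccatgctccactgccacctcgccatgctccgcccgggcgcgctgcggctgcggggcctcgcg
The Bhmt window holds 3 copies of AGGTCA, the motif bound by many nuclear receptors, which begin 234, 72 and 47 bases before the start site. Dmgdh holds no match to any motif searched, and its window is richer in G and C (68.0%, against 48.0% for Bhmt). AGGTCA, added to the search after the windows had been read, was found in 16.3% of all windows and in 11 of the 33 enzyme windows (33.3%). Bhmt2, a related methyltransferase outside the 40, averaged 75.5 ± 4.52 FPKM in sham and 108 ± 7.11 in BDL and rose by 0.51 ± 0.13 (adjusted p = 0.0159).

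Homocysteine that is not remethylated leaves through Cbs and Cth, and these consecutive enzymes moved in opposite directions. Cbs, cystathionine beta-synthase, was 179, 119 and 124 FPKM in sham, 67.5, 65.2 and 63.2 in BDL, and in LIG20 81.6, 61.1 and 65. Cth, cystathionine gamma-lyase, was 205, 173 and 175 FPKM in sham, 435, 404 and 377 in BDL, and in LIG20 412, 288 and 519. In both genes sham was apart from all 6 other libraries, Cbs above them and Cth below. Cbs fell with ligation by 1.07 on the log2 scale (SE 0.17, adjusted p = 0.00109) and Cth rose by 1.14 ± 0.19 (adjusted p = 0.00177). Cdo1, which oxidizes cysteine, read 592, 955 and 960.4 FPKM in sham and 1139.6, 1054 and 984 in BDL, with no call (adjusted p = 0.288). Csad, which makes the taurine precursor, ran over 73, 17.2 and 28 FPKM in sham, 42.9, 39.1 and 34.4 in BDL, and in LIG20 53, 44.6 and 48.2. Sham replicate 1 alone lay above every other library in Csad. With it the difference of BDL from sham was 0.22 ± 0.39 (adjusted p = 0.705), and without it 0.79 (adjusted p = 0.00797).

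Ratios of enzymes within a library do not depend on scaling by a single factor per library, such as median-of-ratios or TPM, but would change with quantile normalization or removal of the length trend. The pairs below were chosen after their values had been seen and carry no test. Bhmt was 4.39, 7.55 and 6.99 times Cbs in sham, 44, 53.7 and 60.7 times in BDL, and 26.3, 21.6 and 30.5 times in LIG20. For Cth over Cbs the means were 1.33 ± 0.167 in sham, 6.2 ± 0.235 in BDL and 5.92 ± 1.8 in LIG20 (SD, n = 3). Otc to Cps1 was 0.256, 0.217 and 0.283 in sham, 0.11, 0.119 and 0.132 in BDL, and in LIG20 0.0479, 0.0994 and 0.0633. In Bhmt to Cbs and Otc to Cps1 the 3 groups were apart, with LIG20 between the others in the first and lowest in the other. Slc25a15 to Otc was 0.448 ± 0.0853 in sham, 1.05 ± 0.0345 in BDL and 2.22 ± 0.346 in LIG20. Gnmt to Mat1a was 2.09 ± 0.397, 0.895 ± 0.0693 and 1.36 ± 0.288 in the same order.

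**Figure D3:**
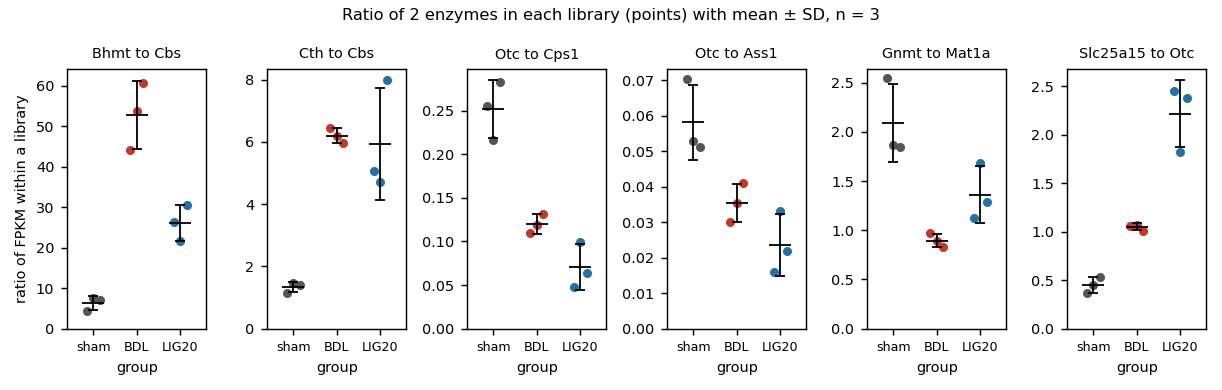
Ratio of the FPKM of 2 enzymes within each library for 6 pairs, with a point per library and the mean ± SD of each group (n = 3). Bhmt to Cbs stands at 4.39 to 7.55 in sham, 44 to 60.7 in BDL and 21.6 to 30.5 in LIG20, and Slc25a15 to Otc is higher in each group in turn.

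Few of the enzymes passed the test in LIG20 against ligation alone. Gnmt and Slc25a15 rose, Bhmt fell, and 37 of the 40 did not pass the test, a share of 7.5% called beside 11.8% of all tested genes (9.98% up and 1.79% down). The enzymes' median change was 0.03, and in 14 the libraries of the groups did not overlap, against 51.2% of all tested genes. LIG20 lay above in 7 and below in 7, beside 40.7% and 10.5%. Bhmt fell by 0.94 on the log2 scale (SE 0.20, adjusted p = 0.0219), to 0.528 times the BDL mean. Gnmt rose by 0.78 ± 0.21 (adjusted p = 0.0389), to 1.73 times the BDL mean. Slc25a15 rose by 0.59 ± 0.11 (adjusted p = 0.014). No library of LIG20 overlapped BDL in any of these 3.

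Each of these calls was lost when single libraries of the ligated groups were left out. Without BDL replicate 1, 2 or 3, 0 of the 40 passed the limma test (5, 3 and 3 at an unadjusted p under 0.05, against 8 with all libraries), and so it was without LIG20 replicate 3 (4 at an unadjusted p under 0.05). The changes themselves stayed between -1.04 and -0.73 for Bhmt, 0.65 and 0.94 for Gnmt and 0.56 and 0.61 for Slc25a15 with any of the BDL or LIG20 libraries that ended a call left out. Bhmt also missed the threshold without LIG20 replicate 2 (-0.73, adjusted p = 0.0568), and Gnmt without LIG20 replicate 1 (0.65, adjusted p = 0.104) or 2 (0.94, adjusted p = 0.0535) or sham replicate 2 (0.78, adjusted p rounded to 0.05 and not below it). With median-of-ratios scaling Gnmt (0.51, adjusted p = 0.216) and Slc25a15 (0.33, adjusted p = 0.152) were not called, while Otc fell (-0.72, adjusted p = 0.0275). Other fits called more enzymes. With BDL and LIG20 fitted alone, 3 rose and 4 fell, with 3433 genes called in all against 1194. Without sham replicate 1, 3 rose and 2 fell, with 3137 genes called. All 7 tested endothelial markers rose in LIG20 against BDL, among them Cdh5 (1.08 ± 0.17, adjusted p = 0.012), and their summed level went from 39.7 to 42.8 FPKM in BDL to 63.6 to 89.6 in LIG20. The share of all tested genes that rose was 9.98%, and without BDL replicate 2 the calls of these markers were lost too, with 0 genes of the whole table called by limma (2310 at an unadjusted p under 0.05). The part of such cells in the changes of the enzymes was not tested.

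Further enzymes had LIG20 and BDL libraries apart without passing the test. Such separation was less common among the enzymes (35%, called ones included) than among all tested genes (51.2%). Otc had a difference of -0.46 ± 0.19 (adjusted p = 0.124), with all LIG20 libraries below all BDL libraries. In Ftcd all LIG20 libraries were above all BDL libraries (0.37 ± 0.19, adjusted p = 0.2). Nags (-0.25 ± 0.10, adjusted p = 0.124) and Kmo (-0.33 ± 0.13, adjusted p = 0.122) lay below BDL in every LIG20 library. The same held for Arg1, Tdo2 and Kynu, while Gls2, Uroc1, Sardh and Csad lay above BDL in every LIG20 library. Without sham replicate 1 both Otc (adjusted p = 0.0265) and Ftcd (adjusted p = 0.0102) passed. Of enzymes with large falls after ligation, Agxt differed between LIG20 and BDL by -0.03 ± 0.16 and Cbs by 0.07 (adjusted p = 0.918 and 0.791). Of those that had risen, Cth differed by -0.04 and Tat by 0.10 ± 0.24 (adjusted p = 0.915 and 0.795). LIG20 replicate 2 was the lowest library of its group in 32 of the 40 enzymes, beside 19.5% of all tested genes. LIG20 replicate 1 was the highest in 29, beside 21.4%. The median SD within LIG20 was 0.286 on the log2 scale for the enzymes and 0.147 for all tested genes. In BDL the same medians were 0.064 and 0.098, and in sham 0.227 and 0.246. Without LIG20 replicate 2, Sds rose (0.72, adjusted p = 0.047), where with it the difference was 0.37 ± 0.25 (adjusted p = 0.325). Sums over the 40 enzymes were 15126 to 15914 FPKM in the BDL libraries and 17785, 11566 and 15761 in LIG20. LIG20 replicate 2 also had the highest summed stellate cell and fibroblast markers, 213 FPKM against 110.2 and 129 in its group. Its summed plasma protein genes of hepatocytes were the highest as well, 84258 FPKM against 79463 and 83517. So were its cholangiocyte (464), endothelial (89.6) and red blood cell (372 against 173 and 186) sums, but not those of macrophages, neutrophils and lymphocytes. Its sum for markers of hepatocytes near the central vein was the lowest, 1728 FPKM against 2402 and 2309. For markers of hepatocytes near the portal tract, other than the listed enzymes, its sum lay between the others, 2759 FPKM against 2876 and 2532. The part of these in the enzymes' levels was not tested.

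**Figure D4:**
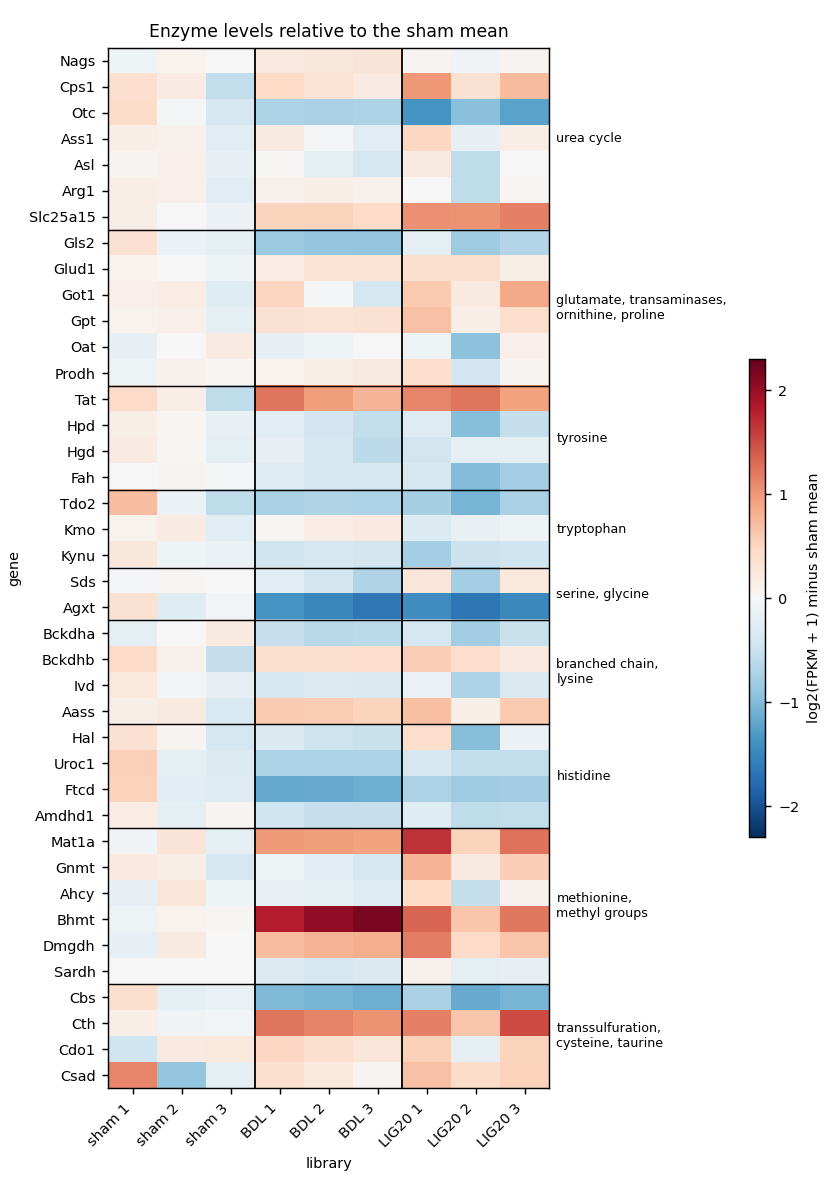
Level of each of the 40 enzymes in each of the 9 libraries as log2(FPKM + 1) minus the mean of the sham libraries, grouped by pathway, red above and blue below that mean. The BDL columns resemble each other, whereas LIG20 replicate 2 is paler or bluer than its group in most rows, being the lowest of the 3 in 32 enzymes.

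Against sham, LIG20 shares the sham libraries with the ligation comparison, so the values are given side by side rather than as further support. Here 9 enzymes rose and 11 fell, 50% of the 40 beside 52.6% of all tested genes (43.7% up and 8.92% down), with a median of -0.09. The libraries were apart in 21 enzymes, 9 above and 12 below sham, beside 55.4% of all tested genes (45.7% above and 9.71% below). Otc fell by 1.19 (SE 0.19, adjusted p = 0.000538) on the log2 scale and Slc25a15 rose by 1.08 ± 0.11 (adjusted p = 3.42e-05). Their changes in BDL against sham were -0.73 and 0.49. Bhmt stood at 1.06 ± 0.20 above sham in LIG20 (adjusted p = 0.00161) and 2.01 in BDL. Fah fell by 0.71 (SE 0.16, adjusted p = 0.0035), after -0.35 without a call in BDL. The 5 enzymes past the threshold in LIG20 against sham and not in BDL against sham were Cps1, Gpt, Hpd, Fah and Tdo2, and Uroc1 and Sardh were called in BDL against sham alone. Except in Fah, which kept its call under all 21 alternatives, these calls were sensitive. Cps1 (0.69 ± 0.25, adjusted p = 0.0367) was lost under 10 alternatives, with adjusted p up to 0.697, and its groups overlapped. Among these, leaving out sham replicate 3 gave 0.40 (adjusted p = 0.109) and LIG20 replicate 1 gave 0.54 (adjusted p = 0.126). Gpt (0.41 ± 0.15, adjusted p = 0.0382) turned to -0.14 with median-of-ratios scaling and was 0.28 (adjusted p = 0.135) without LIG20 replicate 1. Hpd (-0.61 ± 0.19, adjusted p = 0.0212) was -0.42 (adjusted p = 0.0715) and Tdo2 (-0.86 ± 0.26, adjusted p = 0.0191) was -0.76 (adjusted p = 0.0701) without LIG20 replicate 2. Without sham replicate 1 the fall of Tdo2 was smaller, -0.51, and kept its call. With median-of-ratios scaling 1 enzyme rose and 20 fell in LIG20 against sham, so the balance of directions in this comparison depends on the scale. Otc, Slc25a15, Fah, Agxt, Bckdha and Cbs were called with the same direction under all 21 alternatives.

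**Figure D5:**
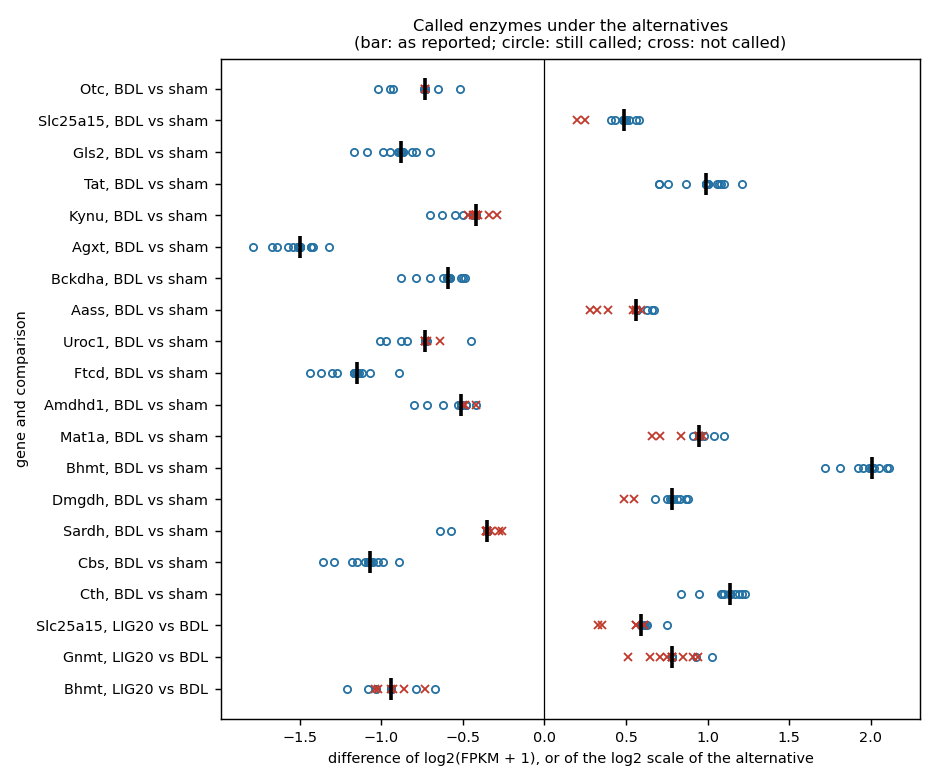
Log2 change of each enzyme called in BDL against sham (17) and in LIG20 against BDL (3) under the 21 alternatives; the bar marks the reported value, a circle an alternative in which the call remained and a cross one in which it did not. Bhmt, Cth, Tat, Agxt, Ftcd, Cbs, Gls2 and Bckdha show circles alone in the ligation comparison, and none of the 3 enzymes of the other comparison does.

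A further chosen list of amino acid metabolism genes, 79 in the table of which 74 were tested, also moved both ways with ligation. It does not hold every such gene. Of the 74, 10 rose, 19 fell and 45 did not pass the test, with a median of -0.09. Among all tested genes 22.9% rose and 6.76% fell. In the list, the smallest p in BDL against sham were those of Prodh2, Kyat1, Asrgl1 and Shmt1. Prodh2, which breaks down hydroxyproline on the way to glyoxylate, averaged 86 ± 15.9 FPKM in sham and 32.4 ± 0.471 in BDL (-1.37 ± 0.13, adjusted p = 4.2e-05). Kyat1, a kynurenine aminotransferase, was 52.4 ± 16.8 FPKM in sham and 14.2 ± 1.18 in BDL (-1.77 ± 0.19, adjusted p = 8.87e-05). Shmt1, which moves a carbon unit from serine to folate, was 54.3 ± 7.05 and 28.1 ± 0.309 FPKM (-0.92 ± 0.13, adjusted p = 0.000634). Asrgl1, an asparaginase, rose from 2.32 ± 0.179 to 7.18 ± 0.914 FPKM (1.30 ± 0.17, adjusted p = 0.000285). In LIG20 against BDL 3 of the 74 rose and none fell, beside 9.98% up and 1.79% down of all tested genes. These were Slc25a13, Aldh4a1 and Aldh18a1, and without BDL replicate 2 their calls were lost, as limma then called 0 genes of the whole table (2310 at an unadjusted p under 0.05). Slc25a13, the aspartate-glutamate carrier that supplies aspartate to Ass1, was 31.2, 32.9 and 29.3 FPKM in sham, 29.7, 29.5 and 29.6 in BDL, and in LIG20 44.4, 43.4 and 43.3. Its LIG20 libraries were above all others, with a rise of 0.55 ± 0.10 over BDL (adjusted p = 0.0137). Aldh4a1, which completes proline breakdown, rose by 0.46 ± 0.11 (adjusted p = 0.0312) and Aldh18a1, of proline synthesis, by 0.53 ± 0.15 (adjusted p = 0.0451). Gatm, of creatine synthesis, came next with 0.84 ± 0.25 (adjusted p = 0.0553).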

How the data were processed

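Liver RNA-seq of 9 mouse libraries was analysed from FPKM values that the authors deposited in 1 table of 21470 genes. Libraries were made with the VAHTS Universal V6 kit from TRIzol RNA, per the labels' protocols. The submitters' processing notes name fastp, HISAT2 2.1.0, DESeq2 and build GRCm39, while the sources used here do not name the annotation or the counting program. Groups and replicate numbers came from the titles.

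FPKM steps between libraries gave whole fragments for 19449 of 19449 genes with enough values (100%, within 0.02 fragments), used for depth and an alternative with voom. The main test was limma 3.58.1 (lmFit, eBayes with trend, R 4.3.3) on log2(FPKM + 1), with 9 libraries in 1 fit. The filter kept genes that reached 1 FPKM in 3 or more libraries, and Benjamini-Hochberg adjustment ran over all of these. The script was tested on simulated data. The smallest two-sided p of an exact permutation of 3 against 3 libraries is 0.1.

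All enzymes may be named. Every library is given for the 7 urea cycle members and for the 8 largest rises and falls of BDL against sham past the threshold and of LIG20 against BDL. Of other lists, the members with the smallest p are named. The value of 1 marker gene is not reported here. The members and lists were chosen with earlier results of these data known. The alternatives changed the pseudocount (0.1, 0.5), the filter (none, or a mean of 5 FPKM), the scaling (median-of-ratios, TPM, quantile) and the fit (2 groups alone, no trend, a replicate block), and left out each library. Voom and removal of a gene-length trend (loess, span 0.4) were added after seeing the data. Promoters came from RefSeq. Cps1, Asl, Arg1, Gls2, Gpt, Kynu, Sds, Mat1a, Cth and Cdo1 had no entry.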

Additional observations from a re-analysis of the deposited data

How the results depend on the processing

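The library spread and the scale of the table limit these results more than depth does. In BDL against sham, 1838 genes were called with a mean of at least 5 FPKM, where fewer genes (5293) were tested. The enzymes' median was -0.44 and 3 rose with median-of-ratios scaling, 6 fell with TPM, and 3 rose with the gene-length trend removed. In LIG20 against BDL, the genes called were 623 without a filter, 575 with a mean of at least 5 FPKM, 630 with median-of-ratios scaling, 1926 with TPM, 3433 with the 2 groups alone, 742 with the replicate block and 498 with the length trend removed, against 1194. For the enzymes of that comparison, 1 rose and 0 fell without a filter, 0 rose and 2 fell with a median of -0.23 under median-of-ratios scaling, 4 fell with the 2 groups alone, and 0 rose and 3 fell with the length trend removed. In LIG20 against sham, 2765 genes were called with a mean of at least 5 FPKM. There 1 enzyme rose and 20 fell with a median of -0.65 under median-of-ratios scaling, 5 fell with TPM, and 4 rose with the length trend removed. Gpt in that comparison was -0.14 with median-of-ratios scaling, and Aass, called up there by 0.48 ± 0.18, was -0.07 with it, -0.01 with the length trend removed and 0.31 without sham replicate 3. The cause was not tested.

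With a library left out, genes called ran from 1883 (without BDL replicate 3) to 4628 (without sham replicate 1) in BDL against sham, with 5 to 10 enzymes up, 5 to 11 down and medians from -0.24 to -0.11. In LIG20 against BDL they ran from 0 by limma (without BDL replicate 2, with 2310 at an unadjusted p under 0.05) to 3137 (without sham replicate 1), with 40 and 68 without BDL replicates 1 and 3, and 492, 193 and 223 without LIG20 replicates 1, 2 and 3. Enzymes up ran from 0 to 3, down from 0 to 2, and medians from -0.06 to 0.14. In LIG20 against sham, genes called ran from 4332 to 6859, enzymes up from 6 to 13, down from 8 to 14, and medians from -0.21 to 0.12. The labels do not say that a number pairs samples, so the replicate numbers were not taken as pairs. Over the 3 comparisons, deviations of same-numbered libraries correlated at -0.13 to 0.28 and those of differently numbered libraries at -0.30 to 0.14. These ranges overlap and do not settle the question. With the replicate block 2782, 742 and 5125 genes were called in the 3 comparisons.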

Other observations

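Among 23 tested regulators of amino acid catabolism, 0 rose and 7 fell by limma with ligation, with a median of -0.14, beside 22.9% up and 6.76% down of all tested genes. In LIG20 against BDL 4 rose and 0 fell, with a median of 0.25, beside 9.98% up and 1.79% down. These 4 calls were lost without BDL replicate 2, when limma called 0 genes of the whole table (2310 at an unadjusted p under 0.05). Cebpa, a hepatocyte transcription factor, averaged 199 ± 59 FPKM in sham and 89.7 ± 2.26 in BDL (-1.10 ± 0.19, adjusted p = 0.00192). Nr1h4, the bile acid receptor, fell with ligation (-0.65 ± 0.11, adjusted p = 0.00174), as did Atf5 (-0.84 ± 0.15, adjusted p = 0.00195) and Sirt3, a mitochondrial deacetylase (-0.67 ± 0.12, adjusted p = 0.00215). The 4 that rose in LIG20 over BDL were Foxo1, Ppara, Creb3l3 and Crtc2. Ppara, a fatty acid sensor of the fasted liver, averaged 16.1 FPKM in sham, 6.97 in BDL and 12.7 in LIG20, with a rise of 0.78 ± 0.22 over BDL (adjusted p = 0.0458). Foxo1, a factor held back by insulin signalling, rose by 0.73 ± 0.14 (adjusted p = 0.0159).

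Sham replicate 1 was the highest of all 9 libraries in 14 of the 40 enzymes, and LIG20 replicate 1 in 16. The share of all tested genes was obtained only within groups. There sham replicate 1 was the highest in 24 enzymes, beside 58.3% of all tested genes, and LIG20 replicate 1 in 29, beside 21.4%. Across tested genes, sham replicate 1 correlated with the other sham libraries at 0.974 and 0.964, and those correlated at 0.989 (Pearson's r of log2 values, a description across genes, which are not independent replicates).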
